A study of Mus musculus with 8 samples.

Results

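Vasopressin reaches the kidney as a hormone and is read there by receptors, of which the V2 receptor signals through cAMP. The genes described here are 8 genes of vasopressin reception and cAMP signalling: the receptor genes Avpr2 and Avpr1a, the G protein subunit gene Gnas, the adenylyl cyclase genes Adcy6 and Adcy3, the protein kinase A (PKA) catalytic subunit gene Prkaca, the cAMP phosphodiesterase gene Pde4d and the transcription factor gene Creb1. They were chosen by name for their place in the route, with earlier results of these data known. All 8 had a probe that passed the filter on dim probes, among 19593 genes and transcripts tested.

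The kidneys came from mice aged 8 weeks on a mixed 129Sv/J and C57BL/6J background, with 1 Agilent 1-colour array for each mouse. The 4 NEKO mice were Keap1-/-::Nrf2Flox/Flox::K5-Cre, and the 4 control mice were K1 (Keap1+/-::Nrf2Flox/Flox; mouse 1, a female) or K1Cre (Keap1+/-::Nrf2Flox/Flox::K5-Cre; female mouse 8 and male mice 4 and 7). NEKO mice 2 and 3 were females and mice 5 and 6 were males. All 8 mice carried the floxed Nrf2 alleles, and every control was heterozygous for Keap1, so the comparison was not made with wild-type mice. Keap1, which holds the transcription factor Nrf2 down, was lost in the whole body, whereas K5-Cre removes Nrf2 where the Keratin5 promoter is active, in squamous epithelium. The label of kidney fitted the markers: the proximal tubule list had a mean level of 5.78 to 5.96 over the 8 arrays.

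In collecting duct principal cells, the V2 receptor encoded by Avpr2 activates the stimulatory G protein encoded by Gnas, adenylyl cyclases make cAMP, and PKA phosphorylates the water channel aquaporin 2 and moves it to the apical membrane, where water is taken back from the urine. Phosphodiesterases break cAMP down, and PKA also phosphorylates the transcription factor CREB1, which binds cAMP response elements in promoters. The V1a receptor encoded by Avpr1a works through another G protein, Gq, and calcium, and is found in vascular smooth muscle and, in the kidney, in intercalated cells of the collecting duct.

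A level below is the log2 signal of a probe after subtracting that of the 75th percentile probe on the same array, and a difference is NEKO minus control on that log2 scale, fitted in limma with sex as a term. A gene was called at a Benjamini-Hochberg adjusted p under 0.05 over all 19593. Females lay on 1 slide and males on the other, with both groups on each. An interaction of sex and genotype therefore cannot be told apart from one of slide and genotype. The share of probes well above background ran from 61.7% to 65.7% over the arrays, and no spot was saturated. The deleted gene checked the labels: the Keap1 level was 1.84 ± 0.07 (SD, n = 4) in controls and 0.20 ± 0.17 (SD, n = 4) in NEKO mice (adjusted p = 0.0046, limma). The Nrf2 target Nqo1, at 2.13 ± 0.60 (SD, n = 4) in controls, was at 4.75 ± 0.73 (SD, n = 4) in NEKO mice (adjusted p = 0.065, limma). The labels name each array as a separate mouse.

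None of the 8 genes was called between NEKO and control kidneys, where 44 of the 19593 genes and transcripts, 0.225%, were called. Avpr1a was the single member with an unadjusted p under 0.05, against 18% of everything tested, and the single member whose groups did not overlap, against 9.28% of everything tested in either direction. Of the 8, 6 had a higher mean in NEKO kidneys and 2 a lower one. Their median difference was 0.12 on the log2 scale, beside a median of -0.03 over everything tested.

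**Figure D1:**
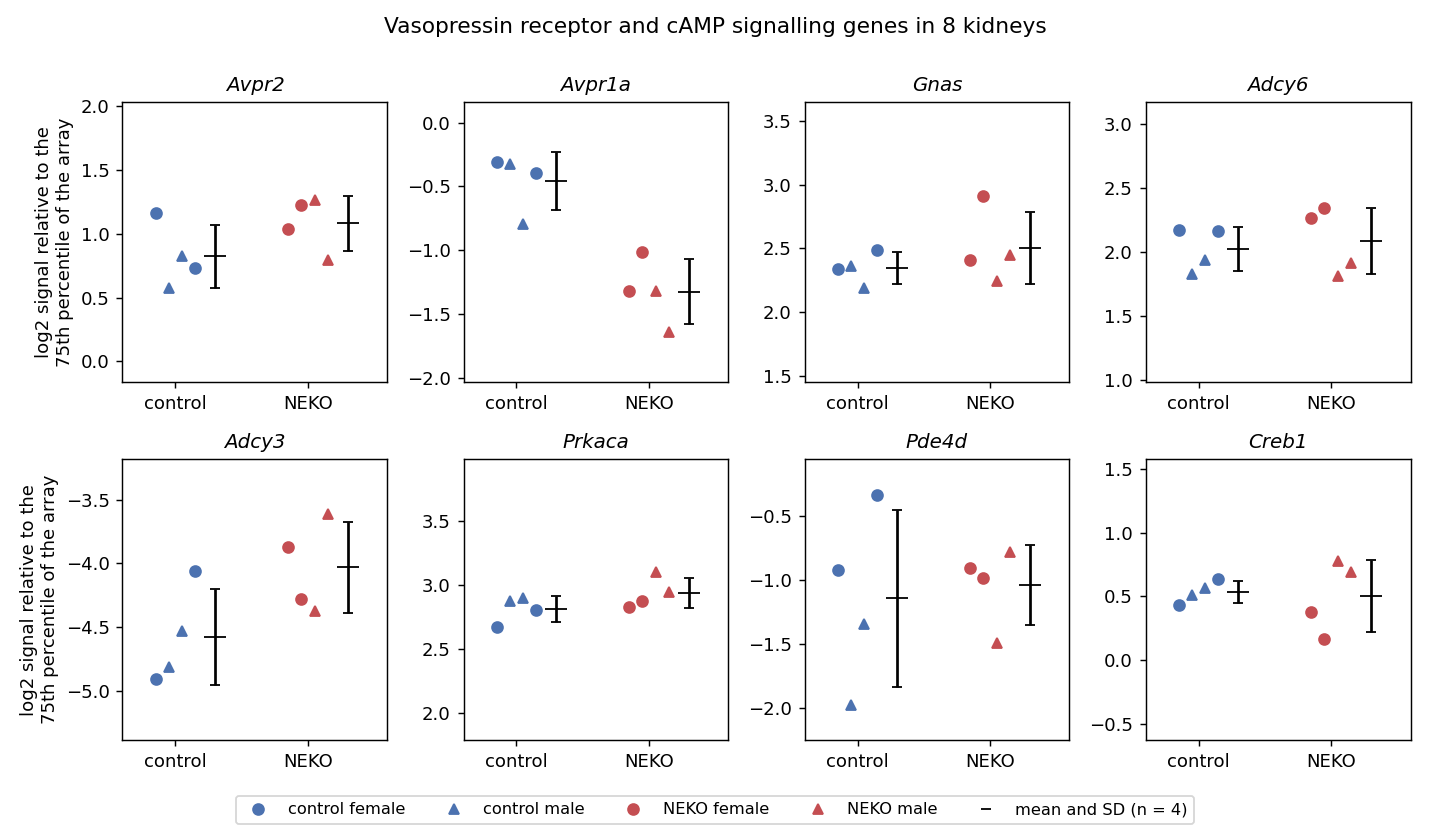
Log2 level of each of the 8 genes, with the 75th percentile of an array at 0, in each control (blue) and NEKO (red) kidney, with females as circles, males as triangles, and the mean and SD (n = 4) in black. Each panel has its own vertical axis of equal length; every NEKO mouse lies below every control mouse for Avpr1a, and the groups overlap for the other 7 genes.

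Avpr1a was lower in NEKO kidneys by a fitted factor of 1.82, in both sexes. In the controls its level was -0.31 and -0.40 in females 1 and 8 and -0.33 and -0.80 in males 4 and 7. In the NEKO mice it was -1.32 and -1.01 in females 2 and 3 and -1.32 and -1.64 in males 5 and 6. Every NEKO mouse was thus below every control mouse, which held for 5.39% of everything tested, and control male 7 came closest to the NEKO range. The means were -0.46 ± 0.23 (SD, n = 4) in controls and -1.32 ± 0.26 (SD, n = 4) in NEKO mice. The difference was -0.87 (standard error 0.14, 95% interval -1.19 to -0.54), with an unadjusted p of 0.00042 and an adjusted p of 0.064 in limma, so it missed the threshold over all genes. An exact two-sided permutation of 4 mice against 4 gave p = 0.0286, the smallest that this design can give. The difference was -0.81 in females and -0.92 in males. The adjusted p ran from 0.042 to 0.31 over the alternative settings, and Avpr1a was called when the background was corrected by normexp (adjusted p = 0.044) and when a sex by genotype interaction was fitted and the effect then averaged (adjusted p = 0.042).

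The cells that carry Avpr1a can also vary in number between kidneys, and in whole kidney RNA fewer cells of a type and less RNA per cell cannot be told apart. All 9 intercalated cell markers tested had a lower mean in NEKO kidneys. Of these, 7 had an unadjusted p under 0.05, beside 18% of everything tested, and none was called. Their mean level was between 0.61 and 1.17 in controls and between -1.29 and 0.60 in NEKO mice, so the groups did not overlap. Within the list, the anion exchanger gene Slc26a4 differed by -2.07 and Foxi1, the transcription factor that specifies these cells, by -0.09. Means were also lower in all 6 thick ascending limb markers and in 4 of 5 distal convoluted tubule markers. In each of those lists 3 had an unadjusted p under 0.05 and none was called. Among the NEKO mice, mouse 6 was lowest in both the mean intercalated cell marker level (-1.29) and Avpr1a (-1.64), and mouse 3 was highest in both (0.60 and -1.01). Mice 2 and 5 had mean marker levels of 0.38 and -0.40, with Avpr1a at -1.32 in each. Among the controls, mouse 4 was lowest in the mean marker level (0.61), with Avpr1a at -0.33. Control mouse 7 was lowest in Avpr1a (-0.80), with a mean marker level of 0.70. The 6 smooth muscle markers had a mean level between 0.38 and 0.86 in controls and between 0.45 and 0.89 in NEKO mice, with a median difference of 0.21. The part of either cell type in the lower Avpr1a signal was not tested.

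**Figure D2:**
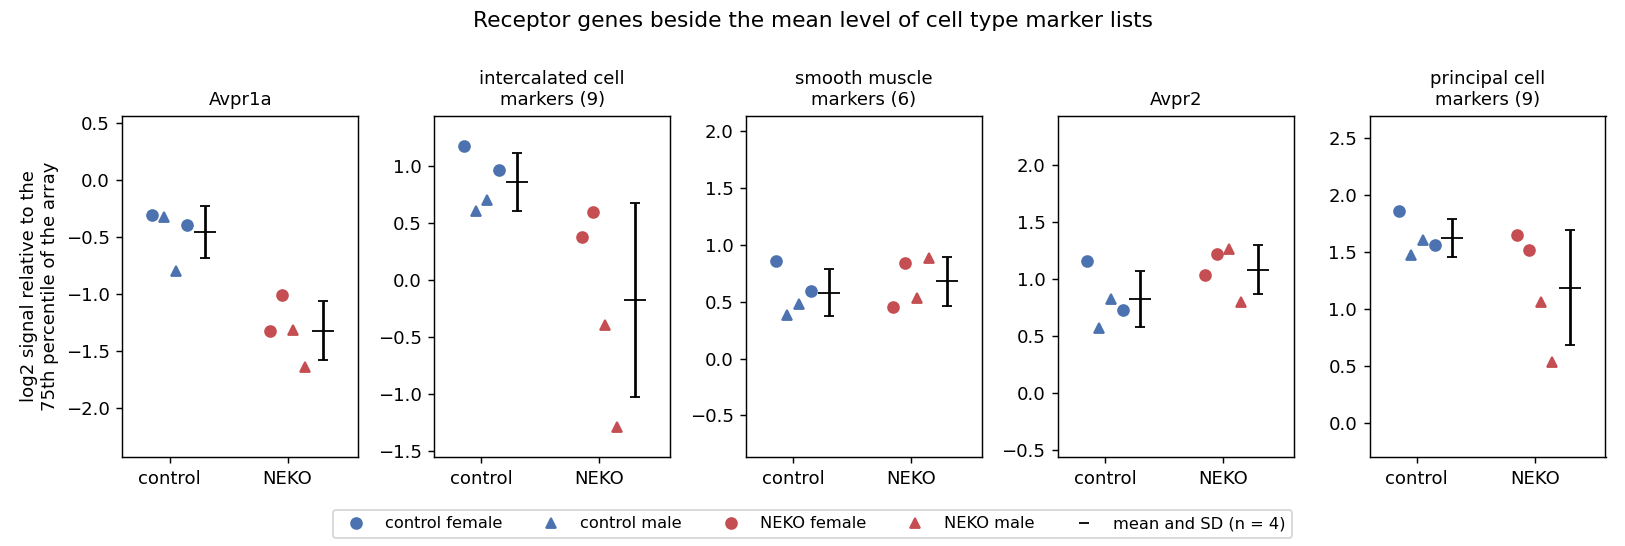
Log2 level of Avpr1a and Avpr2 and mean log2 level of the intercalated cell, smooth muscle and principal cell marker lists in each kidney, with the 75th percentile of an array at 0, and with the mean and SD (n = 4) of each group in black. The Avpr1a and the intercalated cell panels have no overlap between control (blue) and NEKO (red) mice, while the groups overlap in the other 3 panels. In the intercalated cell panel the groups nearly touch, at 0.61 in control mouse 4 and 0.60 in NEKO mouse 3.

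Avpr2, the receptor gene of the water-retaining response, had a higher mean in NEKO kidneys, by less than the test could call. Its level was 1.16 and 0.73 in control females 1 and 8 and 0.58 and 0.83 in control males 4 and 7. It was 1.04 and 1.23 in NEKO females 2 and 3 and 1.27 and 0.80 in NEKO males 5 and 6. The groups overlapped, with 3 of the 4 controls at or below 0.83 and 3 of the 4 NEKO mice at or above 1.04. The means were 0.82 ± 0.25 (SD, n = 4) and 1.08 ± 0.21 (SD, n = 4). The difference was 0.26 (standard error 0.15, 95% interval -0.09 to 0.61, adjusted p = 0.40 in limma), and was 0.18 in females and 0.33 in males. It ran from 0.15 without NEKO mouse 5 to 0.36 without control mouse 1. A fall of Avpr2 by more than 0.09 therefore lies outside the interval, and a rise of up to 0.61 lies within it. The principal cell markers, from cells that hold the V2 receptor, had a lower mean in NEKO kidneys in 8 of 9 genes. Of the 9, 2 had an unadjusted p under 0.05, beside 18% of everything tested, and none was called. Their mean level was between 1.47 and 1.86 in controls and between 0.53 and 1.64 in NEKO mice.

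Gnas encodes the stimulatory alpha subunit that couples the V2 receptor to the cyclases. The probe read for it, annotated to NM_001077510, was at 2.34 and 2.49 in control females, 2.37 and 2.19 in control males, 2.41 and 2.91 in NEKO females and 2.24 and 2.45 in NEKO males. NEKO female 3 lay highest, and the other 3 NEKO mice were inside the control range. The difference was 0.16 (standard error 0.13, 95% interval -0.15 to 0.46, adjusted p = 0.55 in limma), and was 0.038 without NEKO mouse 3. The other probes of the locus, annotated to NM_019690 and NM_201617, did not rise well above background in any mouse.

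The cyclase gene Adcy6, one of the calcium-inhibited cyclases and a main source of vasopressin-induced cAMP in the collecting duct, had nearly the same mean in both groups. Its level was 2.17 and 2.17 in control females, 2.27 and 2.35 in NEKO females, 1.83 and 1.94 in control males and 1.81 and 1.92 in NEKO males. All 4 females lay above all 4 males, in both groups alike, and sex cannot be told apart from slide here. The difference by genotype was 0.06 (standard error 0.07, 95% interval -0.12 to 0.23, adjusted p = 0.69 in limma), and was 0.027 without NEKO mouse 3.

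Adcy3, a cyclase best known from olfactory neurons and also present in kidney, was close to background. Its brighter probe was well above background in 3 of 4 controls and in all 4 NEKO mice. The level was -4.91 and -4.06 in control females, -4.81 and -4.53 in control males, -3.87 and -4.28 in NEKO females and -4.37 and -3.61 in NEKO males. The groups overlapped through control female 8. The difference was 0.55 (standard error 0.25, 95% interval -0.04 to 1.13, adjusted p = 0.30 in limma), and was 0.26 under normexp. The dimmer probe of the same accession was well above background in 1 control and 4 NEKO mice, so it passed the filter on dim probes through the NEKO mice, and no difference is given for it.

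Prkaca, the catalytic subunit that phosphorylates aquaporin 2, varied little between mice. Its level was 2.67 and 2.81 in control females, 2.88 and 2.90 in control males, 2.83 and 2.88 in NEKO females and 3.10 and 2.95 in NEKO males. Both NEKO males lay above every control, and the NEKO females lay among the controls. The difference was 0.13 (standard error 0.07, 95% interval -0.04 to 0.30, adjusted p = 0.38 in limma).

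Pde4d encodes a cAMP-specific phosphodiesterase that limits the vasopressin response, and its probes disagreed. The brighter probe was at -0.92 and -0.33 in control females, -1.98 and -1.35 in control males, -0.90 and -0.98 in NEKO females and -1.50 and -0.78 in NEKO males. The NEKO mice lay inside the control range, and the difference was 0.10 (standard error 0.27, 95% interval -0.54 to 0.74, adjusted p = 0.86 in limma). It was -0.11 without control mouse 4 and -0.12 without NEKO mouse 6.

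The dimmer Pde4d probe, of the same accession NM_011056, was at -2.44 and -2.89 in control females, -3.76 and -3.09 in control males, -2.07 and -2.11 in NEKO females and -2.43 and -2.32 in NEKO males. All 4 NEKO mice lay above all 4 controls, which held for 3.6% of the 26026 kept probes. Control female 1 and NEKO male 5 came closest, at -2.44 and -2.43. The difference was 0.81 (standard error 0.19, 95% interval 0.37 to 1.26, unadjusted p = 0.0033, adjusted p = 0.13 over the 26026 kept probes, in limma), where 59 probes, 0.227%, were called. The array annotation gives both probes the same transcript, so it does not say which Pde4d isoforms each one reads.

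Creb1, the transcription factor gene at the end of the route, was at 0.43 and 0.63 in control females, 0.51 and 0.57 in control males, 0.38 and 0.16 in NEKO females and 0.78 and 0.69 in NEKO males. Both NEKO females lay below all controls and both NEKO males above all controls. The difference over both sexes was -0.03 (standard error 0.12, 95% interval -0.32 to 0.25, adjusted p = 0.90 in limma), and was 0.056 with its probes averaged. It was -0.26 in females and 0.19 in males. Creb1 was the single member with an unadjusted p under 0.05 for the interaction of sex and genotype, where 10.5% of everything tested had one: males minus females was 0.45 (95% interval 0.02 to 0.89, unadjusted p = 0.043, adjusted p = 0.45, limma). No member passed the adjusted test of the interaction, which 3 genes and transcripts, 0.0153%, passed. The other Creb1 probes differed between the genotypes by 0.12 and 0.09 and had the higher mean in NEKO mice.

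**Figure D3:**
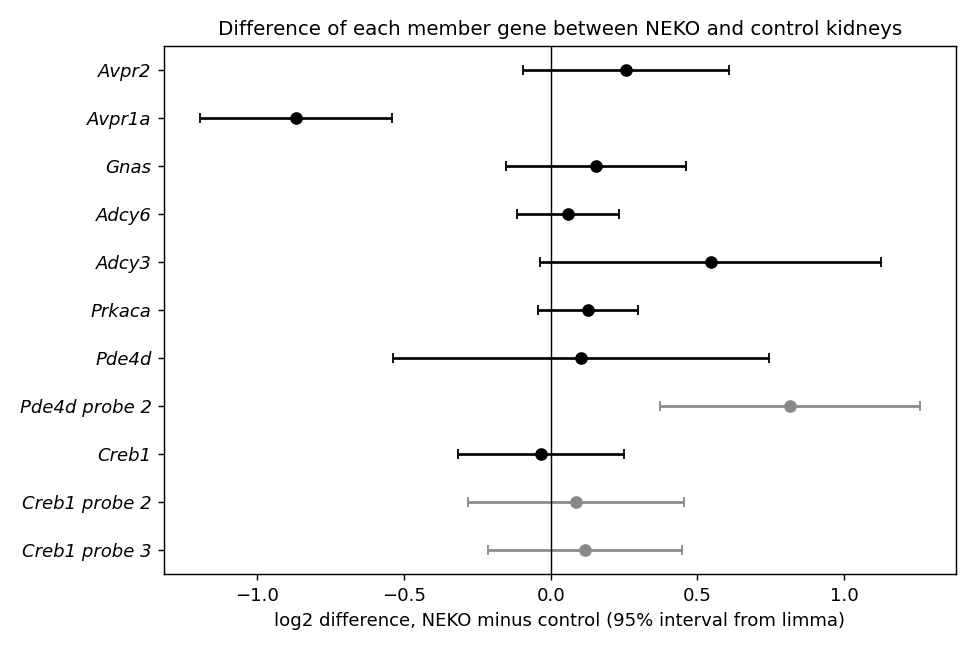
Fitted log2 difference, NEKO minus control, with its 95% interval from limma, for each of the 8 genes (black) and for the further kept probes of Pde4d and Creb1 (grey). Among the 8 genes, the interval of Avpr1a, -1.19 to -0.54, is the only one that leaves out 0; among the grey probes, that of Pde4d leaves out 0. The dimmer Adcy3 probe, at background in most controls, is not drawn. The intervals are not adjusted for the number of genes.

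The promoter windows of Avpr1a and Pde4d, the members with a probe whose groups did not overlap, are shown because the route ends in a factor that binds promoters and Nrf2, active in NEKO mice, does too. Both are the 250 bases before the annotated start on the plus strand, from RefSeq on GRCm38.p6, at chr10:122448249-122448498 for Avpr1a and at chr13:108653927-108654176 for Pde4d. Capitals mark the letters TGACG on either strand, the core of the cAMP response element.
Avpr1a: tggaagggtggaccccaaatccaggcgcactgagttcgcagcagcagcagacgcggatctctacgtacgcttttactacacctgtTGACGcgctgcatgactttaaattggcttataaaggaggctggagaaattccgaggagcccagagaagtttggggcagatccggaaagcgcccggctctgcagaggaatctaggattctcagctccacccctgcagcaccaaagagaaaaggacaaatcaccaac
Pde4d: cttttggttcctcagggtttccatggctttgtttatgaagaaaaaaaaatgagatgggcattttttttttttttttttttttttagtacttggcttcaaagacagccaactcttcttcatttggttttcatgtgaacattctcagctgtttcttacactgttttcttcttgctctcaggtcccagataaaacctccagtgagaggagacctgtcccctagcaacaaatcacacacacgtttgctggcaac
The Avpr1a window held TGACG once, at position -165 from the start, and the Pde4d window held none. Searched on both strands, the full element TGACGTCA, which contains the core, was in 1.55% of the 32851 promoter windows of the table and in 0 of the 12 windows listed for 7 of the 8 genes. The core was in 17.8% of all windows and in 5 of the 12, those of Avpr1a, Gnas (3 start sites) and Prkaca. Of the Gnas windows, 2 overlap and hold the same match, which is counted in each. The Nrf2 motif core TGACNNNGC, which can overlap the letters TGAC of the others, was in 10.2% of all windows and in 1 of the 12, at the other Prkaca start. GC content was 53.6% in the Avpr1a window and 38.8% in the Pde4d window. Adcy6 was not in the table.

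Around these 8 genes, 97 other genes of the route were listed by role, and 82 of them had a kept probe. None of the 82 was called. Under an unadjusted p of 0.05 limma gave 4 higher and 10 lower, 17.1% of the list beside 18% of everything tested. In 2 all NEKO mice lay above all controls, as did 3.89% of everything tested, and in 5 below. Together these are 8.54% of the list beside 9.28% of everything tested. For the interaction of sex and genotype, 7 of the 82 had an unadjusted p under 0.05 in limma, beside 10.5% of everything tested. The adjusted test of the interaction was passed by 1 of the 82, beside 0.0153% of everything tested. The median difference of the 82 was 0.005, with 42 higher and 40 lower. Of the rest, 4 had no named probe and 11 had probes that were not kept, among them the hormone gene Avp, the receptor genes Avpr1b and Oxtr and the cyclase genes Adcy2, Adcy8 and Adcy10.

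**Figure D4:**
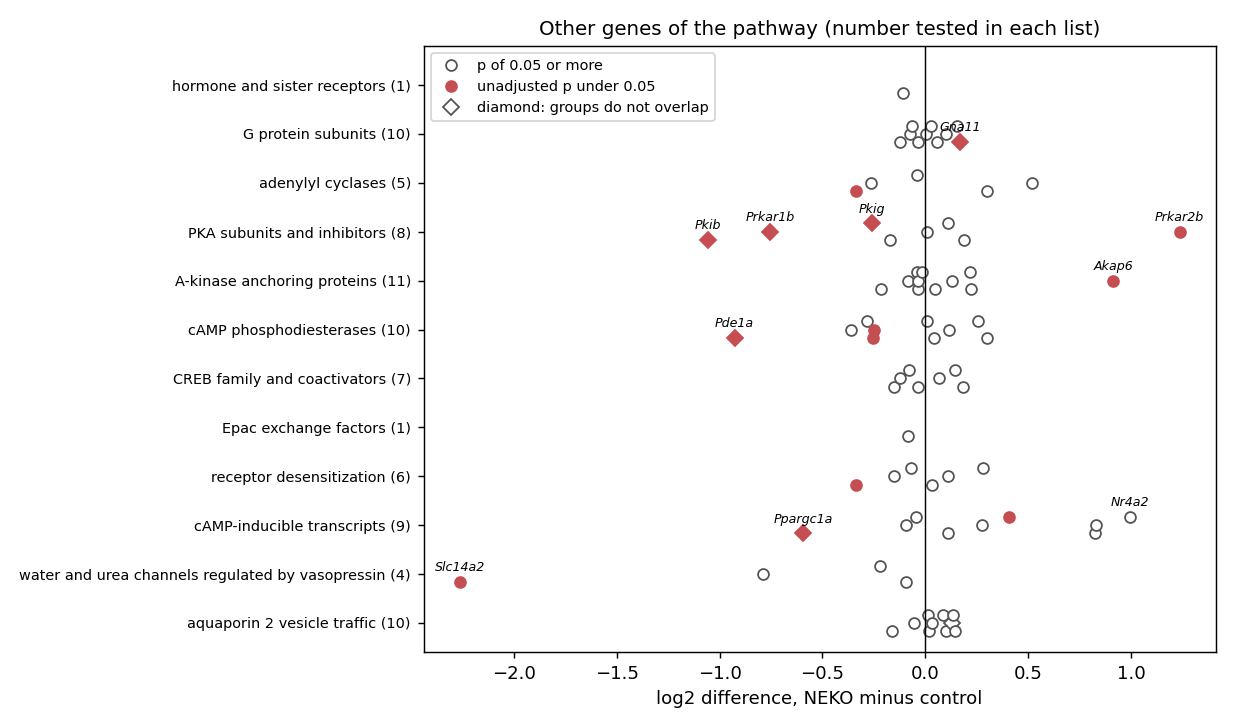
Fitted log2 difference, NEKO minus control, of the 82 other genes of the route, 1 point for each gene, in rows by role with the number tested. Red marks an unadjusted p under 0.05 and diamonds mark genes whose groups do not overlap; the largest spread is among PKA subunits and inhibitors, from -1.06 to 1.23, and Slc14a2 at -2.26 is the lowest point.

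Around the catalytic subunit, the lists held 8 further PKA subunit and inhibitor genes. Of these, 1 was higher and 3 lower at an unadjusted p under 0.05, and in those 3 every NEKO mouse lay below every control, beside 18% and 5.39% of everything tested. Prkar1b, a type I regulatory subunit best known from brain, was at -2.34 and -2.30 in control females and -3.12 and -2.70 in control males, against -3.13 and -3.15 in NEKO females and -3.56 and -3.64 in NEKO males. Its difference was -0.75 (standard error 0.10, adjusted p = 0.053 in limma), the adjusted p closest to the threshold in these lists, and it was called without control mouse 4 (-0.85, adjusted p = 0.039), with array weights (adjusted p = 0.043) and with the effect averaged over the sexes (adjusted p = 0.028). Under normexp it was -0.44 (adjusted p = 0.062), and the adjusted p was 0.21 with no sex term and 0.39 under the methods' comparison. Pkib, an inhibitor of the catalytic subunit, was at -2.56, -3.25, -3.65 and -3.68 in the controls and at -4.14, -4.06, -4.37 and -4.80 in the NEKO mice. Pkib was thus dim, with a NEKO mean of -4.34 beside -4.03 for Adcy3, though well above background in all 4 NEKO mice. Its difference was -1.06 (standard error 0.17, adjusted p = 0.065 in limma), and it was called with the effect averaged over the sexes (adjusted p = 0.041). Under normexp it was -0.53 (adjusted p = 0.093), and its adjusted p reached 0.39 under the methods' comparison. Pkig, another inhibitor of the family, differed by -0.26 (adjusted p = 0.17 in limma) with groups that did not overlap.

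Prkar2b, a type II regulatory subunit, had the largest positive difference of the route, 1.23 (standard error 0.37, adjusted p = 0.18 in limma). It was at -0.99 in control female 1 and at 0.26 to 0.50 in the other 3 controls, and at 1.52, 0.15, 1.40 and 1.94 in NEKO mice 2, 3, 5 and 6. NEKO female 3 lay below 3 of the 4 controls, so the groups overlapped.

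The remaining signalling lists held mostly small differences. Among 10 G protein subunit genes, Gna11, a Gq-family subunit of the kind the V1a receptor uses, was higher by 0.17 in NEKO mice with no overlap (adjusted p = 0.24 in limma), and Gnb1 had the most negative difference at -0.12, or 0.11 with its probes averaged. Among 5 further cyclases, Adcy7 differed by 0.52 and Adcy1 by -0.34. The Adcy7 difference was -0.31 in females and 1.35 in males (interaction unadjusted p = 0.0077, adjusted p = 0.23, limma), and over both sexes was 0.20 without NEKO mouse 6. Among 11 A-kinase anchoring protein genes, Akap6 differed by 0.91 (adjusted p = 0.25 in limma) (0.35 under normexp) but was well above background in 2 of 4 controls, and Akap9 differed by -0.22. The oxytocin gene Oxt differed by -0.11 and the cAMP-activated exchange factor gene Rapgef3 by -0.09. Of 6 genes of receptor desensitization, Grk5 differed by 0.28 and Grk4 by -0.34. None of these passed the adjusted test.

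Of 10 further phosphodiesterase genes, 3 were lower at an unadjusted p under 0.05 and none higher, beside 18% of everything tested in either direction. Over everything tested, 2074 of 19593 were lower at that p. Pde1a, a calcium-activated phosphodiesterase, was at 3.06 and 2.89 in control females and 2.79 and 2.80 in control males. It was at 2.64 and 2.54 in NEKO females and at 1.39 and 1.25 in NEKO males, so that every NEKO mouse lay below every control and the males lowest. Its difference was -0.93 (standard error 0.22, adjusted p = 0.13 in limma), -0.38 in females and -1.47 in males, and the interaction of sex and genotype had an adjusted p of 0.10. With that interaction in the model and the effect averaged, Pde1a was called (adjusted p = 0.0066). The largest positive difference of the list was that of Pde4b, 0.30 (adjusted p = 0.33 in limma).

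Downstream, 9 transcripts known to be induced through cAMP differed in both directions, with a median difference of 0.27. At an unadjusted p under 0.05, 1 was higher and 1 lower, beside 18% of everything tested in either direction. The sexes differed in Nr4a1, with a genotype difference of -0.26 in females and 1.91 in males (interaction unadjusted p = 0.00052, adjusted p = 0.10, limma). Ppargc1a, a coactivator of mitochondrial genes, was at 4.54, 4.02, 3.87 and 4.17 in the controls and at 3.78, 3.42, 3.58 and 3.44 in the NEKO mice. Its groups did not overlap, and the difference was -0.60 (standard error 0.15, adjusted p = 0.14 in limma). Nr4a2, an immediate early nuclear receptor, differed by 0.99 (adjusted p = 0.32 in limma). It was at -1.81, -2.57 and -2.32 in NEKO mice 2, 5 and 6 and at -4.05 in NEKO mouse 3, below all controls (-3.96 to -3.22). Without mouse 3 the Nr4a2 difference was 1.54 and was called (adjusted p = 0.033). None of 7 CREB family and coactivator genes had an unadjusted p under 0.05, against 18% of everything tested. They ranged from -0.15 for Crebbp (0.024 under normexp) to 0.18 for Crtc3 (-0.010 without NEKO mouse 5).

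The effectors of water and urea transport had lower means in NEKO kidneys in 4 of 4 genes, with none called. Aqp2, the water channel moved by PKA, was at 4.10, 3.75, 3.75 and 3.84 in the controls and 3.70, 3.74, 3.75 and 3.37 in the NEKO mice. Its difference was -0.22 (standard error 0.12, adjusted p = 0.35 in limma). The basolateral channels Aqp3 and Aqp4 differed by -0.09 and -0.79 (adjusted p = 0.66 and 0.52 in limma). For Aqp4 the sexes had opposite signs, with a difference of 0.45 in females and -2.03 in males (interaction unadjusted p = 0.027, adjusted p = 0.37, limma). NEKO females 2 and 3 were at 0.82 and -0.52, on either side of control females 1 and 8 at -0.25 and -0.36. An unadjusted interaction p under 0.05 was held by 10.5% of everything tested.

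Slc14a2, the urea transporter gene of the inner medulla, was the 1 pathway gene that passed the adjusted test of the interaction of sex and genotype (adjusted p = 0.035, limma). It was at 2.89 and 2.36 in control females and 2.25 and 2.52 in NEKO females, but at 2.02 and 2.09 in control males and -2.26 and -2.19 in NEKO males. The females of both genotypes and the control males were thus close together and the NEKO males apart from them. Over both sexes the Slc14a2 difference was -2.26 (adjusted p = 0.21, limma). It was -0.71 with the probes of the gene averaged (adjusted p = 0.29), and it was called with the effect averaged over the sexes (adjusted p = 0.0034). Of the 10 genes of aquaporin 2 vesicle traffic, 8 had a higher and 2 a lower mean, from -0.16 for Ezr, a linker of membrane and actin, to 0.14 for Stx3, a membrane fusion protein. Myo5b, a motor of recycling vesicles, was above every control in every NEKO mouse but differed by 0.13 with an unadjusted p of 0.11 in limma.

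As a description of pattern over the 8 arrays, with no test, the 3 of 13518 compared genes most like Avpr2 were Plce1 (Pearson r = 0.97), Slc2a1 (r = 0.97) and Fam214b (r = 0.97), with Spearman rho of 0.90, 1 and 0.90. Those most like Avpr1a were Necap1 (r = 0.98), Arhgap4 (r = 0.97) and Tbpl2 (r = 0.96), with rho of 0.95, 0.95 and 0.90. With r over 0.9 there were 21 genes for Avpr2 and 69 for Avpr1a. These points share arrays, slides and scaling. Of the 6 genes named, Tbpl2, a TBP-like gene, differed by -1.67 between the groups and was called (adjusted p = 0.049, limma). Over everything tested, 0.225% was called. Tbpl2 was picked on these same arrays for a pattern like that of Avpr1a, whose groups did not overlap. The call is therefore not independent of that choice.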

How the data were processed

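The authors deposited Agilent Feature Extraction output, with background-subtracted intensity values per spot, and a matrix of log2 values for the same 8 arrays. The matrix was recomputed from the intensities within 0.01 for 99.86% of its values. The methods name no normalization for the arrays, and for the study as a whole name an unpaired comparison with unequal variances.

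Outlier spots (73 to 172 of 43379 on an array) were left out, spots of 1 probe were averaged, and the 75th percentile of all non-control probes of an array was subtracted from its log2 processed signals. A probe was kept if 4 or more of the 8 arrays had it well above background and 6 or more had a value, and the kept probe with the highest mean stood for a gene. Accessions named 26690 of 41174 probes through RefSeq. The array annotation is on mm9, and GRCm38.p6 served for names and promoter windows only. The number of arrays limits the precision.

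Groups came from the sample titles. NEKO and control mice were compared with limma 3.58.1 (R 4.3.3; lmFit, eBayes) with sex as a covariate, Benjamini-Hochberg adjustment over 19593 genes and transcripts, and exact two-sided permutation for single genes. The fit was tested on simulated data.

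The members, the lists of pathway and marker genes and the alternatives were chosen with earlier results of these data known. Named genes are the members, called pathway genes (there were none), the largest positive and negative difference of each list, those with an unadjusted p under 0.05 and no overlap, Keap1, Nqo1 and the 3 patterns nearest each receptor gene. Others (Myo5b, Nr4a1, Aqp2, Aqp3, Aqp4, markers) were named after their values were seen. Alternatives covered background correction, normalization, the filter on dim probes, the mean of the probes of a gene, the sex and slide terms, the variance model, array weights, the methods' unpaired comparison, the authors' matrix and leaving out each mouse.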

Additional observations from a re-analysis of the deposited data

Results flagged for a closer look

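In 70 groups of 4 mice, 5 had a mouse that stood apart from the other 3 by Dixon's ratio, and chance marks about 1 group in 20. Among NEKO mice, Gnb1 was low in mouse 2 (2.07 against 2.35 to 2.40 in the others, ratio 0.841). Among NEKO mice, Pde4b was high in mouse 5 (-0.56 against -0.77 to -0.74, ratio 0.843), and Crebbp was low in mouse 3 (-4.07 against -3.97 to -3.95, ratio 0.858). Among controls, Prkar2b was low in mouse 1 (-0.99 against 0.26 to 0.50, ratio 0.843). Mouse 1 was the single control with no K5-Cre, so a difference by Cre cannot be told apart from one of a single mouse. The dimmer Adcy3 probe was high in control mouse 8 (-4.41 against -5.18 to -5.08, ratio 0.877).

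The genotype difference of Slc14a2 was lower in males than in females by 4.03 on the log2 scale (males minus females -4.03, adjusted p = 0.035 for the interaction in limma), and was -4.28 in males and -0.25 in females. These values are from the brightest probe of the gene. Over both sexes the difference was -2.26 on that probe and -0.71 with the probes averaged, and the interaction is not given for the other probes. Males and females lay on different slides, so this interaction cannot be told apart from one of slide and genotype. The NEKO males also stood apart in several mean marker levels. They lay below every other mouse in the principal cell, intercalated cell, thick ascending limb and distal convoluted tubule lists. In the urothelium and lymphocyte lists they lay above every other mouse. The part of tissue make-up was not tested.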

How the results depend on the processing

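Of the 8 members, 0 were called, and 1 (Avpr1a) was called under normexp, under the methods' unadjusted comparison and when averaged over the sexes. With any mouse left out, 0 were called. Avpr2, Gnas, Adcy6, Adcy3 and Prkaca kept their direction and stayed uncalled under every alternative run for them, from 0.15 to 0.36 for Avpr2, 0.038 to 0.24 for Gnas, 0.027 to 0.097 for Adcy6, 0.26 to 0.74 for Adcy3 and 0.094 to 0.16 for Prkaca, and Avpr1a kept its direction, from -0.95 to -0.72. The brighter Pde4d probe reversed with mice left out (range -0.12 to 0.31). Creb1 reversed with its probes averaged (0.056), on its other probes (0.12 and 0.086) and with mice left out (-0.096 to 0.055). The single-probe fits were chosen after seeing the data. Of the 82 pathway genes, 0 were called, 1 with array weights, 7 under the methods' unadjusted comparison, 4 when averaged over the sexes, and 0 to 1 with a mouse left out (1 without NEKO mouse 3 or without control mouse 4). Gnb1 reversed with its probes averaged (0.11), Crebbp under normexp (0.024) and Crtc3 with mice left out (-0.010 to 0.29; -0.010 without NEKO mouse 5). Over everything tested, 44 calls became 182 under normexp, 20 with detection on all 8 arrays, 92 with a trend and robust eBayes, 96 with array weights, 2212 and 1 under the methods' comparison without and with adjustment, 513 when averaged over the sexes, and 17 to 41 with a mouse left out (17 without control mouse 7, 18 without NEKO mouse 6, 19 without control mouse 4, 21 without NEKO mouse 5, 23 without control mouse 8). The cause of these shifts was not tested. Detection on all 8 arrays leaves no value for Adcy3 or Akap6. No paired analysis was possible because the replicate numbers run from 1 to 8 over both groups and none is shared. Genes near background, such as Adcy3, are limited by signal.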
